A study of Mus musculus with 39 samples.

Results

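MHC class II molecules sit on the surface of dendritic cells, macrophages and B cells and show peptides from engulfed protein to CD4 T cells. An alpha and a beta chain pair in the endoplasmic reticulum around the invariant chain, which blocks the peptide groove and steers the pair to endosomes. There the invariant chain is cut to a fragment, the fragment is exchanged for peptide with the help of H2-DM, and H2-O holds H2-DM back. Transcription of most of these genes depends, wholly or in part, on the coactivator Ciita, which joins factors bound at the X and Y boxes of promoters. Interferon gamma induces Ciita in many cell types. In adipose tissue class II is known from resident macrophages and dendritic cells, and it has also been described in adipocytes.

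The 8 genes described here were chosen by name, out of 29411 gene names on the array, and every probe of each was read. They were H2-Aa and H2-Ab1 (the alpha and beta chains of I-A), H2-Eb1 (the beta chain of I-E), Cd74 (the invariant chain), H2-DMa and H2-DMb1 (the 2 chains of H2-DM), H2-Ob (the beta chain of H2-O) and Ciita. They are read by 13 of the 40628 probes, with 12 distinct sequences, since 2 of the 3 Cd74 probes carry the same 60 bases. RNA came from subcutaneous fat of C57BL/6J mice that entered the study after weaning, at 3 to 4 weeks of age, and each of the 39 arrays holds 1 diet at 1 time point. LFC mice ate a diet with 10% of calories from fat and were measured at Day 6, Day 10, Day 14 and Week 0, and every 3 weeks from Week 3 to Week 18 (10 arrays). HFC mice ate a high-sucrose diet with 60% of calories from fat and were measured at the same times and at Day 1 (11 arrays). HF5, HF20 and HF75 mice ate the diet of HFC with 5, 20 or 75 µg of the plant-based formulation KAL-1 and were measured from Week 3 to Week 18 (6 arrays each). By the study's methods weeks were counted from Day 14, so Week 0 and Day 14 are the same time, sampled separately, and they are kept here under their labels. The series' design text speaks of 3 biological replicates, while 1 array for each diet and time point is analysed here. The labels do not say whether an array is 1 mouse or a pool, so every p-value measures the spread between arrays, and a difference between 2 diets at 1 time point has no replicate.

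The 75th percentile of the processed intensity, by which each array was scaled, ran from 107.9 to 1285 over the arrays, and 49.3% (HF75 Week 3) to 87.8% (HF20 Week 15) of spots were well above background. A level here is the log2 processed intensity minus the log2 of that 75th percentile, so 0 is the 75th percentile of the array, and levels of different probes are not comparable. All 8 adipocyte markers on the list (Adipoq, Plin1, Fabp4, Cidec, Lipe, Pparg, Lep and Cfd) were well above background on all 39 arrays. On the HF20 array of Week 15, 4936 spots carried an outlier flag, against a median of 42 over the arrays, and its spots of H2-Eb1 and H2-DMa have no value. The HFC array of Day 1 had 474 flagged spots. This array and that of HF75 Week 3 had the lowest summed class I levels, 108.0 and 132.9 against a median of 619.3 over the 39 arrays. Summed skeletal muscle levels were highest at HF75 Week 3 (1160), HF5 Week 12 (545.6) and HFC Day 1 (456.7), against a median of 5.46. The title of the HF5 array of Week 12 carries another tissue letter than the others of that week. In bulk tissue, fewer cells of a type and less RNA per cell cannot be told apart.

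Promoters of 5 of the 8 genes (6 entries) could be matched by symbol in the RefSeq promoters (assembly GRCm38.p6, 250 bases before the gene start and a short stretch after it). They are shown because the 8 genes were read as one set. The capitals mark the X box letters (GNAAC, 2 or 3 bases, TGANG) and, downstream of them, the Y box letters TGATTGG. For the shares given below, both strands of the whole window were searched. The stretches shown come from the gene's own strand before the gene start. The X and Y letters do not overlap, and the letters were written down after the promoters had been seen.
H2-Aa: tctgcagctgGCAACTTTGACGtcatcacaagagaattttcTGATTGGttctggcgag
H2-Eb1: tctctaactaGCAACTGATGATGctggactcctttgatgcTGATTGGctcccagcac
H2-DMb1: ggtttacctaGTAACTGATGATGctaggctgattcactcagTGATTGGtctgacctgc
H2-Ob: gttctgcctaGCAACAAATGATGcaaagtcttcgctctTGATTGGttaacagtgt

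The 4 stretches lie on chromosome 17, at chr17:34287857-34287914 on the minus strand for H2-Aa, and on the plus strand at chr17:34305766-34305822 for H2-Eb1, chr17:34153087-34153144 for H2-DMb1 and chr17:34238808-34238862 for H2-Ob. The end of the X letters and the start of the Y letters were 15 to 19 bases apart in the 4, and the Y letters ended 43 to 56 bases before the gene start. Of 32851 promoters, 1.81% held the X letters, 7.82% the Y letters and 0.0304% the X letters followed by the Y letters at 10 to 30 bases. The last share is 10 genes, of which 4 are the genes shown. The 2 promoter entries of H2-DMa held neither set of letters, which says only that those letters are not in these windows.

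H2-Aa and H2-Ab1 were each read by probes to different parts of the transcript, and 4 of their 5 probe sequences are given so that the reads can be told apart.
H2-Aa P119760: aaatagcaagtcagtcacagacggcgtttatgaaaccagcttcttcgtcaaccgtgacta
H2-Aa P343306: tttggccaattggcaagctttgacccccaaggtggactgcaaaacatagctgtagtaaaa
H2-Ab1 P215237: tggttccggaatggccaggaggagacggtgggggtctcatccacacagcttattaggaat
H2-Ab1 P215242: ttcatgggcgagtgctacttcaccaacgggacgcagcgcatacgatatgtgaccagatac

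Over the 39 arrays the 2 H2-Aa probes had a Pearson r of 0.91, and the 3 H2-Ab1 probes had r of 0.94 to 0.97 in pairs. The identical Cd74 probes differed by an SD of 0.0985 and at most 0.343 (log2), at HF20 Week 18, with r 0.996. This describes spots of a bright and often saturated probe only, not those of dim probes. These 2 probes were saturated on 19 and 20 of the 39 arrays, while the third probe, P284608, was saturated on 1. Saturation caps the intensity before scaling, so the capped level differs between arrays and need not be the top of the range. The probe saturated on 20 arrays ran from 5.67 to 7.59 on those, and reached 7.75 on the 19 others. The r of P284608 with one of them was 0.87 over the 19 arrays where that one was not saturated and 0.59 over the 20 where it was. The SD of that one was 1.39 over the 19 and 0.66 over the 20, so these 2 r are not directly comparable.

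Among the presenting chains, H2-Ab1 (probe P683598) ran from 0.05 (HFC Day 1) through a median of 4.72 to 6.70 (LFC Week 3). H2-Aa (probe P119760) ran from -2.81 (HFC Day 1) through 1.48 to 3.50 (HF5 Week 9). Both I-A chains were well above background on all 39 arrays, and both were lowest on the HFC array of Day 1. H2-Eb1 ran from -7.06 (HF75 Week 15) through -4.13 to -1.94 (HFC Day 14), and was well above background on 32 arrays. Its partner H2-Ea, which C57BL/6 mice lack in functional form, was well above background on 20 arrays. Cd74 (one of the identical probes) ran from 1.84 (HFC Day 1) through 6.09 to 7.75 (LFC Week 9).

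H2-DMa ran from -3.40 (HF75 Week 3) through -1.13 to 1.32 (LFC Week 3), with 38 values. H2-DMb1 ran from -4.18 (LFC Day 6) through 1.15 to 4.58 (LFC Week 3). Its near-identical neighbour H2-DMb2 could share signal with it, so the H2-DMb1 level is uncertain. H2-Ob had the widest spread, from -7.11 (LFC Day 6) through -2.42 to 3.34 (LFC Week 18), and was well above background on 31 arrays. Ciita ran from -5.47 (HFC Day 1) through -1.98 to 2.37 (LFC Week 3), well above background on 38 arrays. The LFC array of Week 3 held the highest value of 6 of the 13 probes and the HFC array of Day 1 the lowest value of 8.

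**Figure D1:**
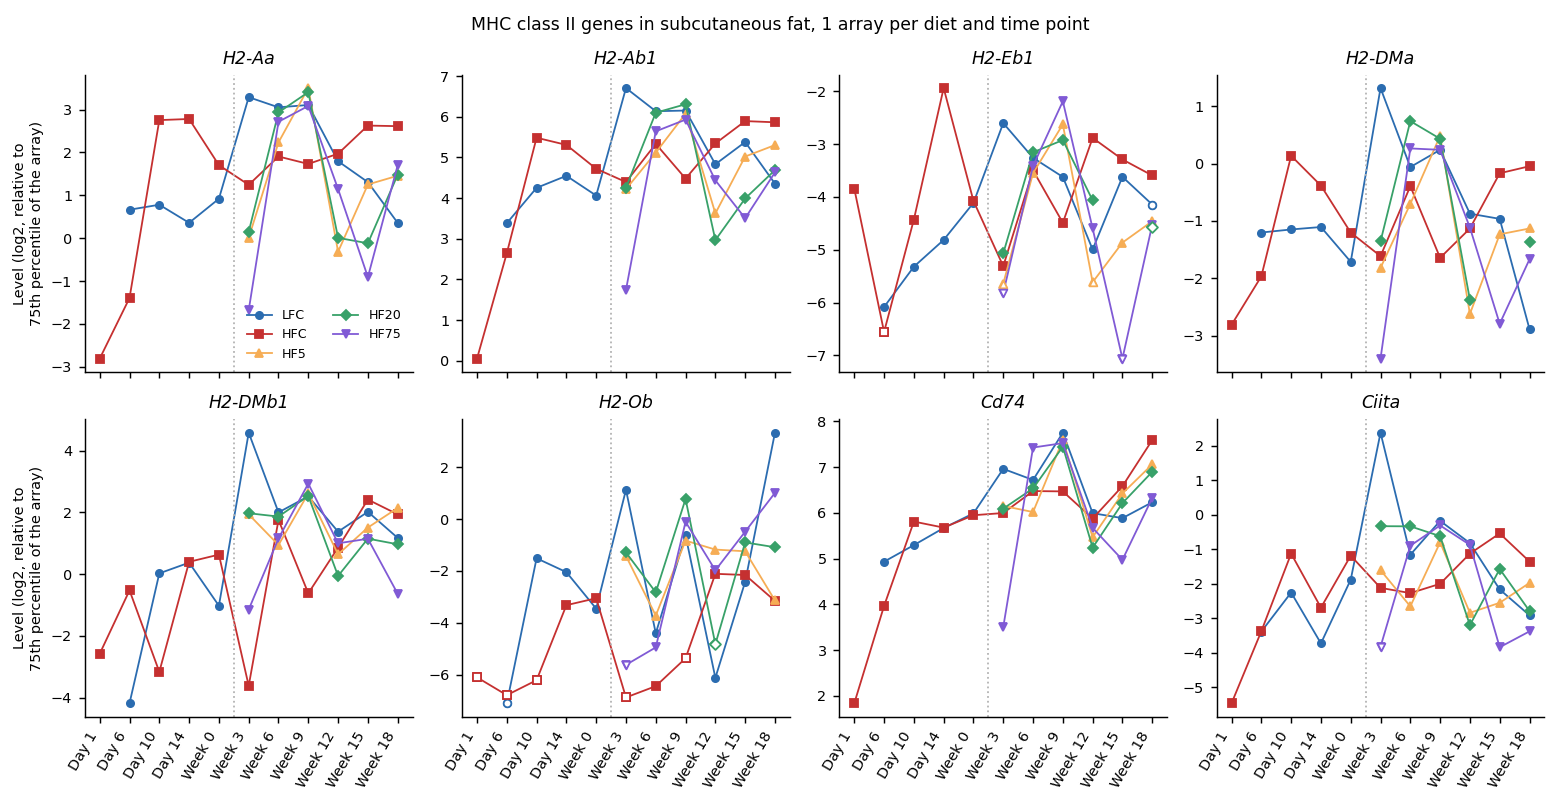
Level (log2, relative to the 75th percentile of the array) of 1 probe of each gene (the one with the highest mean level) against time point, with 1 array per diet and time point; open symbols are not well above background, the dotted line separates the early from the late time points, and the gap in HF20 is the array with flagged spots. LFC Week 3 was the highest array for H2-Ab1, H2-DMa, H2-DMb1 and Ciita, and HFC stayed below the other diets at Week 9 for all 8 genes.

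To read the genes together, 1 probe of each gene was used, and for Cd74 this was one saturated on 20 of the 39 arrays. Each gene's level was centred on its own mean over the arrays and the 8 values of an array were averaged. This class II mean was lowest at HFC Day 1 (-3.08), an array that enters no test, and at Day 6 it was -1.99 in LFC and -2.11 in HFC. It then lay between -0.52 and 0.36 from Day 10 to Week 0. The highest value was 2.61, at LFC Week 3, where 8 of 8 genes were above their own median. At Week 9, LFC, HF5, HF20 and HF75 lay between 1.55 and 1.81 while HFC was at -0.54. The 5 diets spanned 5.00 at Week 3, from 2.61 in LFC to -2.40 in HF75, and 0.80 at Week 18. The Pearson r of the class II mean with the 75th percentile intensity was -0.28 and with the share of spots above background -0.22 (39 arrays).

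The first comparison asks whether the high-fat diet changed the genes. HFC was below LFC at Week 3, Week 6 and Week 9 and above it at Week 15, for all 12 distinct probes at each of those time points. The median difference was -2.86 at Week 3, -0.70 at Week 6, -1.85 at Week 9 and 0.62 at Week 15 (log2, HFC minus LFC). At Week 18, 11 of 12 probes were higher in HFC (median 1.36), and H2-Ob was the exception, with a difference of -6.50. At Day 10, Day 14 and Week 0, 10, 11 and 11 of 12 probes were higher in HFC, with medians of 0.78, 0.99 and 0.65. At Day 6 it was 3 of 12 (median -0.61) and at Week 12 it was 7 of 12 (median 0.14). LFC and HFC were scanned on different days at Day 6 and Week 12 only, so diet and scan day cannot be told apart there. The share of all probes lower in HFC was 50.6% at Week 3, 54.3% at Week 6 and 48.6% at Week 9. The share of all probes higher in HFC was 53.3% at Day 6, 46.0% at Day 10, 59.6% at Day 14 and 44.7% at Week 0. It was 47.1% at Week 12, 48.8% at Week 15 and 60.0% at Week 18.

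**Figure D2:**
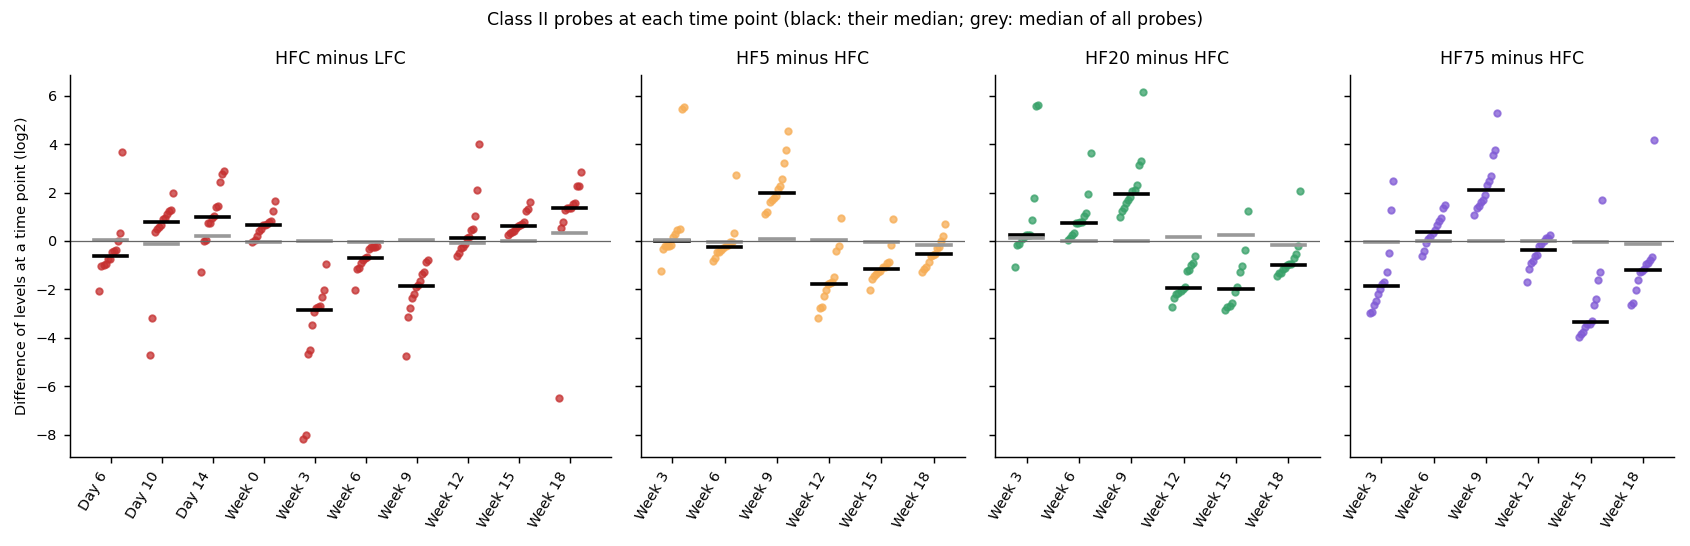
Difference of levels (log2) at each time point for the 12 distinct class II probes (points), their median (black bar) and the median of all probes (grey bar), for HFC minus LFC and each KAL-1 dose minus HFC; a point has no replicate. HFC was below LFC for 12 of 12 probes at Weeks 3, 6 and 9 and above it for 12 of 12 at Week 15.

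Because the difference changed direction between time points, its mean was small against its spread. With the time point as a block, limma called none of the 13 probes between HFC and LFC over 10 time points, and 0% of the 27804 probes tested. At an unadjusted p under 0.05, 5.57% of all probes and 1 of the 13 passed. That probe was H2-Ob, at -2.23 ± 1.02 (log2, SE, adjusted p = 0.847). Without the LFC array of Week 3 (left out after seeing the data) 0 of the 13 passed, and 9 of 13 estimates were above 0, against 3 of 13 with it. H2-Ob was lower in HFC at 6 of 10 time points, and it was not well above background on 4 of the 10 HFC arrays. With scan day instead of time point as the block, 14.3% of all probes and 1 of the 13 passed unadjusted, and 6 of 13 estimates were above 0.
In Week 3 to Week 18, over the 30 arrays of the 5 diets, again 0% of the 29451 probes tested were called, and 4.89% of all probes and 2 of the 13 passed unadjusted. These were H2-DMb1, at -1.82 ± 0.81, and H2-Ob, at -2.84 ± 1.18, each with an adjusted p of 0.881 in limma. H2-Ob was not well above background on the HFC arrays of Weeks 3 and 9, so the Week 3 difference of -8.02 is measured against a value in the background. Without Week 9 neither passed unadjusted. Without the LFC array of Week 3 (left out after seeing the data) neither did, and 7 of the 13 estimates were above 0, against 1 of 13 with it. The ranges of LFC and HFC over these 6 weeks overlapped for all 13 probes. For H2-Ab1 P683598 they were 4.35 to 6.70 in LFC and 4.39 to 5.89 in HFC. The 95% confidence interval of its HFC minus LFC difference was -1.48 to 0.73, which holds changes of either sign.

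Markers of several cell types differed at the same time points. The mean difference of the B cell marker list (10 genes on the array, among them Cd79b and Ms4a1) was -6.80 at Week 3, -2.09 at Week 6 and -4.11 at Week 9, and 1.42 at Week 15. That of the T cell list (9 genes, among them Cd3d, Cd8a and Lck) was -5.55, -2.36, -3.89 and 0.59. The summed B cell list level, in units of the 75th percentile, ran from 0.97 to 136 over the 6 late LFC arrays and from 0.45 to 4.33 over those of HFC. Of the B cell list, 7 of 10 genes were well above background on at least 20 arrays, and Cd79a, Blk and Pax5 were so on 17, 7 and 10. The lymph node stroma list differed by -4.41, -1.94, -2.42 and 0.52 at these 4 weeks. The dendritic cell list was also lower in HFC at Weeks 3, 6 and 9, by as much as -1.47 at Week 3, and higher by 0.32 at Week 15. The macrophage list (10 of 10 genes above background on at least 20 arrays) differed by 0.15, 0.07, -0.53 and 0.67. At Day 10, Day 14, Week 0 and Week 18, where most class II probes were higher in HFC, the macrophage list was higher by 1.49, 1.62, 0.62 and 1.27. The dendritic cell list was higher there by 0.10, 0.63, 0.39 and 0.76, the T cell list differed by -0.02, 0.81, 0.39 and 2.76, and the B cell list by -1.63, -0.38, -0.15 and 1.03. The sign was that of the class II median at 9 of 10 time points for the dendritic cell list, 8 for the T cell and macrophage lists and 6 for the B cell and lymph node stroma lists. Over the 10 time points in limma, 6 of 14 macrophage probes passed unadjusted, all higher in HFC, and 2 of 8 B cell probes, both lower, beside 5.57% of all probes, and none was called. In Week 3 to Week 18, 0% of 14 macrophage probes passed. There 22.2% of 9 B cell and 18.2% of 11 T cell probes did, all lower in HFC, beside 4.89% of all probes. The part of these cells in the class II difference was not tested.

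The second question is whether KAL-1 changed the genes on the high-fat diet. All 3 doses are set against the same HFC arrays. Over the 18 pairs of dose and week, the share of all probes below HFC ran from 40.8% to 58.8%. At Week 9, 12 of 12 probes were above HFC in each dose, with median differences from 1.95 in HF20 to 2.09 in HF75. At Week 15 the doses lay below HFC for 11 of 12 probes in HF5 (median -1.17), 9 of 10 in HF20 and 11 of 12 in HF75 (median -3.36). H2-Ob was the probe above HFC in all 3. Week 12 showed 11 of 12 probes below HFC in HF5 (median -1.76), 12 of 12 in HF20 (median -1.94) and 8 of 12 in HF75 (median -0.39). At that week HFC and HF75 shared a scan day and a slide, while HF5 and HF20 were scanned on another day. Dose and scan day cannot be told apart there. At Week 3, HF75 had 10 of 12 probes below HFC (median -1.88), and it held the lowest value of the 5 diets for 10 of 12 probes. This array had the lowest share of spots well above background of the 39, at 49.3%, against 66.7% for HFC Week 3. At the same week 9 of 12 probes were above HFC in HF20 and 6 of 12 in HF5 (median -0.01). At Week 6, 12 of 12 probes were above HFC in HF20 (median 0.76), 9 of 12 in HF75 and 2 of 12 in HF5. HF20 and HF75 of Week 6 were scanned on another day than HFC and HF5, so there too dose and scan day cannot be told apart. At Week 18, 11 of 12 probes were below HFC in HF20 (median -0.98) and in HF75 (median -1.19), and 9 of 12 in HF5.

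At Week 9 the B cell list also lay above HFC, by 3.86, 5.01 and 4.78 in HF5, HF20 and HF75. At Week 15 its differences were -1.66, -0.60 and -3.23. At Week 12 the B cell list differed from HFC by -0.57 in HF5 and 0.49 in HF20, and the macrophage list by -1.46 and -1.61. At Week 3 in HF75 the B cell list differed by 0.52, the macrophage list by -2.83 and the class I list by -2.15. At Week 6 in HF20 the B cell list differed by 3.37 and the T cell list by 2.90. At Week 18 in HF75 the B cell, T cell, dendritic cell and lymph node stroma lists differed by -2.68, -3.12, -1.90 and -2.31. The skeletal muscle list, 8 probes of 6 genes, had a median estimate above HFC of 2.79, 2.54 and 3.53 in the 3 doses over the 6 weeks. The part of these cells in the class II differences was not tested.

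Over Week 3 to Week 18 limma called 0% of the 29451 probes in each dose, and none of the 13. Unadjusted, 1.25% of all probes passed for HF5, 4% for HF20 and 4.91% for HF75. Of the 13 class II probes 1 passed in each. These counts moved when 1 time point was left out, to between 0 and 6 for HF75 and to 0 or 1 for HF5 and HF20, and HF5 had 0 without its own Week 12 array. The 6 were found without Week 9, where 6.72% of all probes passed. Without Week 3, where the HF75 array stood apart, 1 of 13 passed for HF75, beside 2.78% of all probes. With scan day as the block, 1 of 13 passed for HF5 and for HF20 and 2 for HF75, beside 4.61%, 6.82% and 6.67% of all probes. For HF5, 7 of 13 estimates were then above 0, against 3 with the time point as the block. In HF5 and HF20 the probe that passed over all 6 weeks was H2-Ob, which was above HFC in 6 of 6 and 5 of 6 weeks. In HF5 its levels were -3.72 to -0.83 and in HF20 -4.83 to 0.78, against -6.89 to -2.11 in HFC, so the ranges overlapped. The estimates were 2.43 ± 1.18 and 2.67 ± 1.18 (log2, SE, adjusted p of 1.00 and 0.999 in limma). In HF75 it was above HFC in 6 of 6 weeks, by 2.33 ± 1.18 with an unadjusted p of 0.0589. H2-Ob was not well above background on the HFC arrays of Weeks 3 and 9, where its largest difference in each dose fell. In HF75 the probe that passed was Cd74 P284608, at -1.37 ± 0.62 (adjusted p = 0.881 in limma), from 1.42 to 6.06 in HF75 and 3.59 to 6.23 in HFC. No dose order was seen in these estimates of H2-Ob, whose intervals overlap over most of their length.

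The third question is whether the genes changed with time. All 13 probes had a higher mean in the 12 LFC and HFC arrays of Week 3 to Week 18 than in the 8 of Day 6 to Week 0 (Day 1, with no LFC array, was left out), by a median of 1.15 against -0.03 for all probes (log2). In limma with the diet as a factor, none of the 13 was called, against 0.194% of the 27804 probes. Unadjusted, 10 of the 13 passed, all higher in the late time points, against 14.4% of all probes in either direction and 6.19% in that direction. The 13 hold repeated reads of a gene, and with 1 probe per gene 5 of the 8 passed, beside 13.3% of all probes. Both fits take the LFC and HFC arrays of a time point as independent. With the means of the 10 time points as the samples (added after seeing the data), 10 of 13 passed unadjusted, beside 9.53% of all probes, and the smallest adjusted p was 0.244. With the time point as a random block (also added) 7 of 13 passed, beside 9.43%, and it was 0.338. With Day 14 and Week 0 joined as 1 time point in these 2 fits (also added), 11 and 7 of 13 passed, beside 11% and 9.2% of all probes. For Cd74, P284608 was higher by 1.39 ± 0.48 (adjusted p = 0.204). The identical probes, whose levels saturation capped on some arrays, had the lowest adjusted p of the 13, 0.106, at 1.15 ± 0.30. Their capped level depends on the intensity by which an array was scaled. That intensity ran from 438 to 1243 over the 8 early arrays and from 107.9 to 1130 over the 12 late ones. The effect of the cap on the difference of these probes and on its SE was not tested. H2-DMb1 was higher by 2.30 ± 0.81 (adjusted p = 0.212), and H2-Aa P119760 by 1.01 ± 0.48 (adjusted p = 0.345). The 3 H2-Ab1 probes were higher by 1.05 to 1.32 and Ciita by 1.26. H2-DMa differed by 0.39 ± 0.43, less than its SE.

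**Figure D3:**
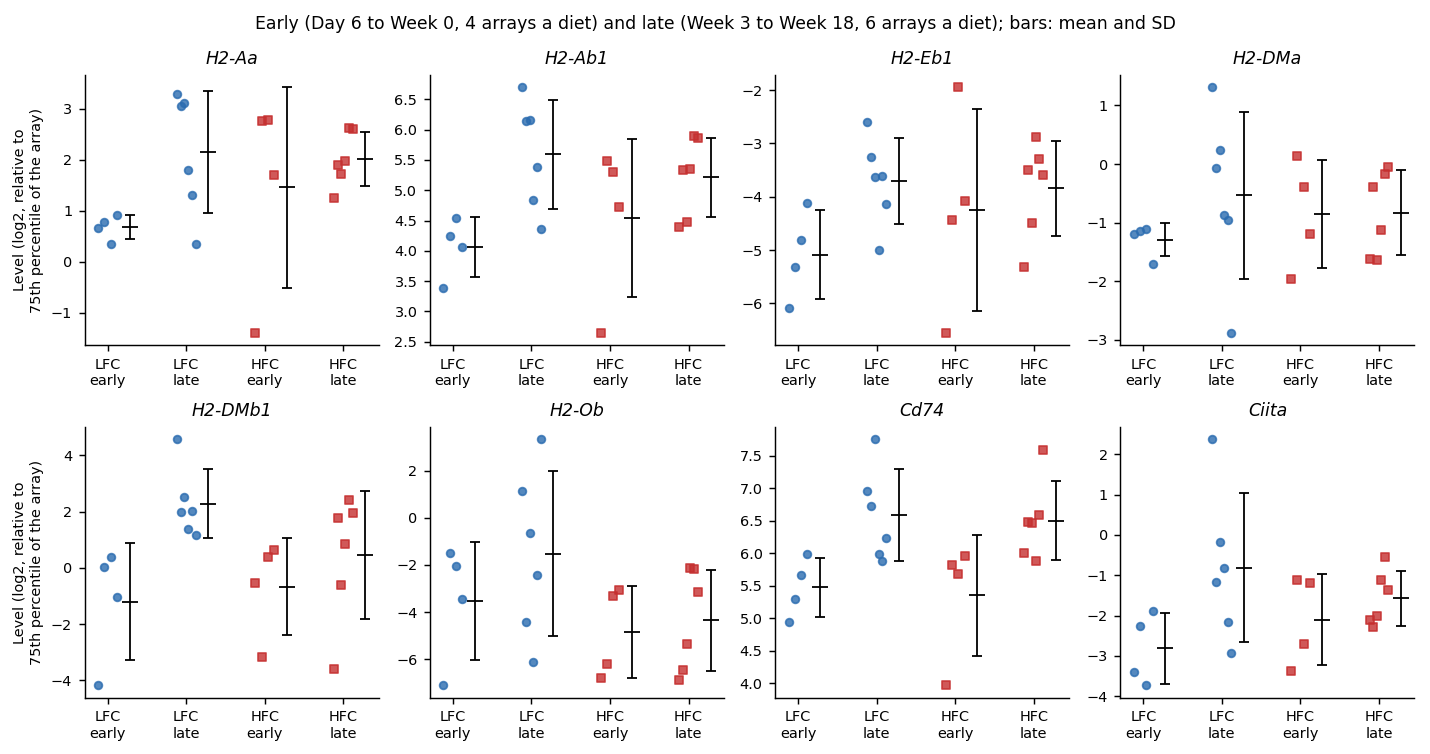
Level (log2, relative to the 75th percentile of the array) of 1 probe of each gene (the one with the highest mean level) on the early and late LFC and HFC arrays, with the mean and SD as bars. In LFC, H2-DMb1 was at most 0.37 early and at least 1.17 late, and the other genes shown overlapped. In HFC all 8 genes overlapped. The share of all probes without overlap was not counted.

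In LFC, H2-DMb1 was at -4.18, 0.03, 0.37 and -1.02 at Day 6, Day 10, Day 14 and Week 0, and between 1.17 and 4.58 in the 6 late arrays, so the groups did not overlap. H2-Ab1 P215237 also did not overlap in LFC, with 1.04 to 2.19 early and 2.41 to 5.02 late. In HFC every probe overlapped. The share of all probes without overlap was not counted in either diet, so this is a description only. Whether the diet difference itself changed between the periods was tested as an interaction. None of the 13 was called, with 0% of the 27804 probes called and 1.92% of all probes and 0 of the 13 below an unadjusted p of 0.05 in limma. Each scan day holds 1 period, so scan day and period cannot be told apart. Without Day 6, where the class II mean was low in both diets, 4 of the 13 probes passed unadjusted, beside 9.54% of all probes, and all 13 stayed above 0. Muscle markers moved the other way, with a median estimate of -2.89 for 8 probes, of which 5 passed unadjusted, and brown fat markers with a median of -1.90. Of the immune lists, 8 of 8 B cell, 9 of 10 T cell, 6 of 10 dendritic cell, 4 of 6 lymph node stroma and 6 of 14 macrophage probes were above 0, against 47.2% of all probes, and no B or T cell probe passed unadjusted. Of these lists, Cxcl13 (2.57) and 2 Ccl19 probes, Cd209a (1.92), Itgax (1.18) and Mgl2 (0.75), and Cd14 (1.27) were higher unadjusted, Madcam1 (-1.12) was lower, and none was called. Their part in the class II difference was not tested.

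Across Weeks 3 to 18 in 5 diets the change per week was near 0 for most of the genes, with a median of -0.02 a week. Limma called 0.0883% of the 29451 probes and none of the 13, and 15% of all probes passed unadjusted, as did 2 of the 13, a share near that of all probes. The estimate for Ciita was -0.09 ± 0.04 a week (adjusted p = 0.302) and that for H2-Ob 0.17 ± 0.08 (adjusted p = 0.295). The arrays of a week were treated as independent here, and with the time point as a random block (added after seeing the data) none of the 13 passed unadjusted, beside 5.27% of all probes. The counts turned on single weeks. Without Week 3, 9 of 13 passed unadjusted, beside 31.5% of all probes, 1 of 13 was above 0 and the smallest adjusted p was 0.0534, while without Week 6, 11 of 13 were above 0.

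The genes of class II moved together over the arrays, which is described without a test because arrays share time points, diets and scaling. The 28 pairs of genes had Pearson r of 0.12 to 0.94, with a median of 0.62. With the means of the time points removed (30 arrays from Week 3 on) the median was 0.71. H2-Aa and H2-Ab1, the partners of I-A, were the closest at 0.94. H2-DMa was closer to H2-Aa (0.89) and H2-Ab1 (0.86) than to its partner H2-DMb1 (0.49). Ciita had r of 0.78 with H2-Ab1 and 0.78 with H2-DMa. H2-Ob stood apart, with r of 0.21 with H2-Aa and 0.12 with H2-DMa but 0.62 with H2-DMb1, and 0.47 and 0.52 with the 2 probes of its partner H2-Oa.

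**Figure D4:**
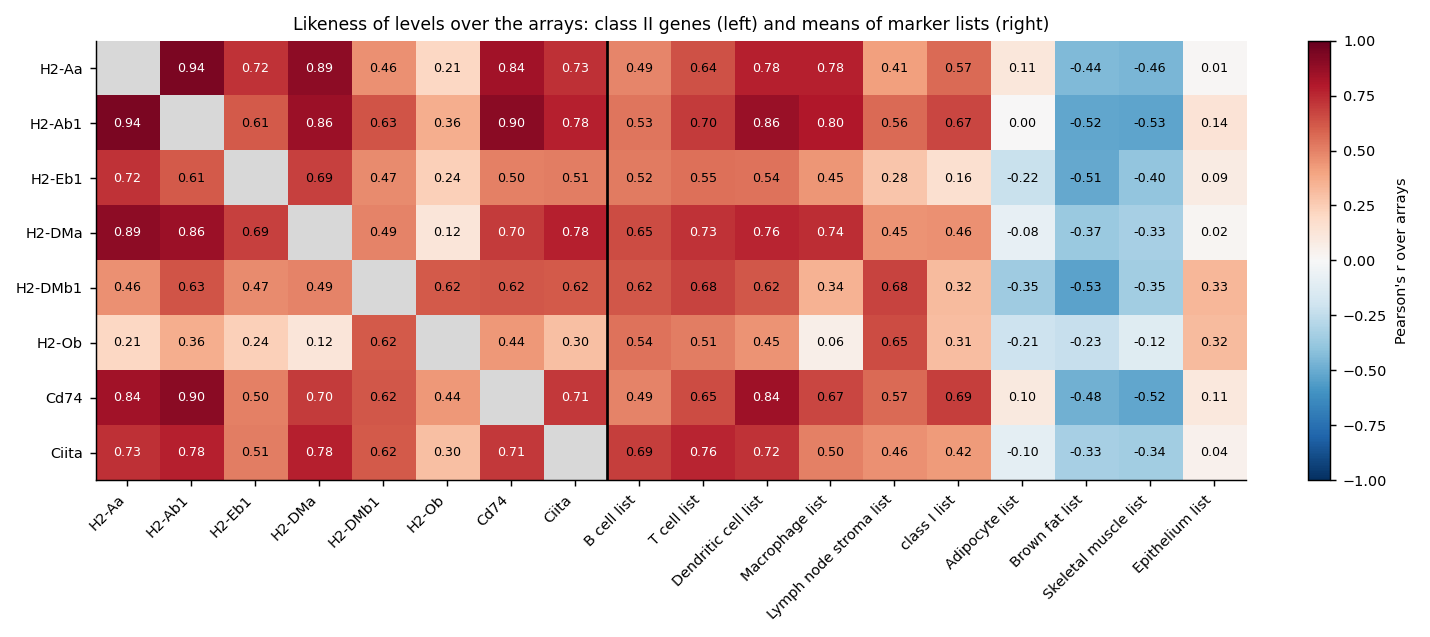
Pearson r over the arrays between the levels of the 8 genes (left) and between each gene and the mean centred level of marker lists (right), for the probe of each gene with the highest mean level. Pairs among H2-Aa, H2-Ab1, H2-DMa and Cd74 had r of 0.70 to 0.94, and H2-Ob had r of 0.06 with the macrophage list where H2-Ab1 had 0.80.

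Genes that act on Ciita or beside it varied in likeness to it. Ifng, whose product induces Ciita, had r of 0.65 and 0.67 with Ciita over its 2 probes. Rfx5, Rfxap and Rfxank, subunits of the factor at the X box, had r between -0.42 and 0.03 in 5 probes. The 10 other genes most like the class II mean were Ccr7 (r 0.91), Ctsw, Lck, Cd2, Gpsm3, Centb1, Stk17b, Cytip, Ifng and Ero1lb (r 0.88), among the 26720 probes well above background on at least 20 arrays. Their median r was 0.01 and 2.10% were above 0.7. Without HFC Day 1 and LFC Week 3, the 2 arrays farthest from the median, the 10 named had r of 0.83 to 0.88. Of the 10, 3 were also among the closest 10 by Spearman's rho, 3 with normexp, 4 with time point means removed, 5 with quantile normalization and 7 without those 2 arrays. Ccr7 is a chemokine receptor of migrating dendritic cells and of T and B cells, and Lck and Cd2 are T cell genes.

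Of the cell type lists, the class II mean was closest to the dendritic cell list (r 0.86, which holds Ccr7) and the T cell list (0.82, which holds Lck and Cd2), then B cells (0.73), lymph node stroma (0.68) and macrophages (0.62). This order changed with time point means removed (30 arrays). The r was then 0.88 for T cells, 0.88 for B cells, 0.85 for dendritic cells, 0.83 for lymph node stroma and 0.61 for macrophages. Within the dendritic cell list r ran from -0.32 (Xcr1) through -0.07 (Zbtb46) and 0.07 (Flt3) to 0.83 (Batf3) and 0.91 (Ccr7). The class II mean had r of -0.14 with adipocyte, -0.45 with muscle and -0.53 with brown fat markers. With time point means removed these were -0.51, -0.14 and -0.32. Single genes differed in this: H2-Aa and H2-Ab1 had r of 0.78 and 0.80 with the macrophage list and 0.49 and 0.53 with the B cell list, while H2-Ob had 0.06 and 0.54. The class I list, the other antigen presentation pathway, had r of 0.55. These r are across 39 arrays that share diets and time points.

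**Figure D5:**
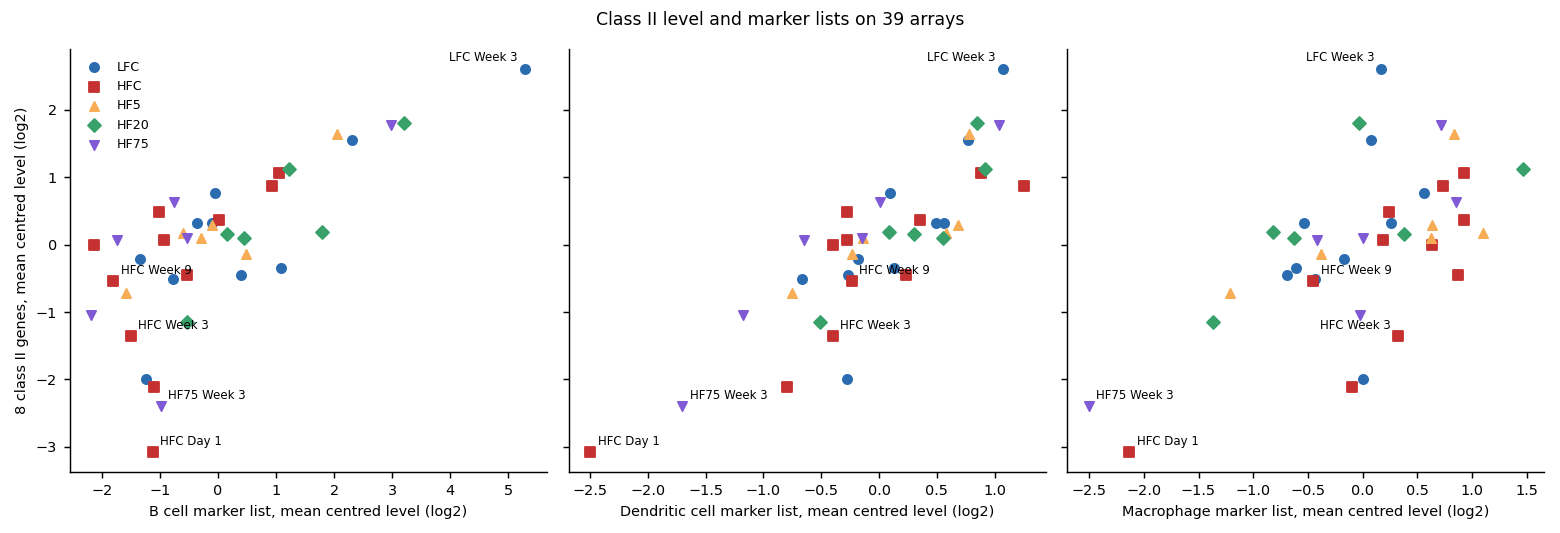
Class II mean (centred log2 level of 8 genes) against the mean centred log2 level of the B cell, dendritic cell and macrophage lists, 1 point per array. LFC Week 3 lay at the top of the class II mean and of the B cell list but not of the macrophage list, and HF75 Week 3 and HFC Day 1 were lowest in both the dendritic cell and the macrophage list.

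Other genes of class II loading and control, a list of 33 genes of which 30 are on the array in 51 probes, gave no called probe in any of the 8 comparisons (48 tested). Late against early, 33 of the 48 were above 0, with a median of 0.26 against -0.03 for all probes, and 4 were higher and 4 lower unadjusted. That is 16.7% of the 48 in either direction, beside 14.4% of all probes, and 8.33% higher, beside 6.19%. Cd86 (1.18) and Cd40 (1.14), which give costimulation and license dendritic cells, and Il4ra (1.03) and Irf8 (0.91) were the 4 higher, and Nfyc (-1.34), a subunit of the Y box factor, was among the lower. HFC against LFC, Lgmn (0.46) and Ctsb (0.62), endosomal proteases, and Il10 (2.10) were the 3 that passed unadjusted, all higher in HFC, a share of 6.25% beside 5.57% of all probes.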

How the data were processed

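The authors scanned 39 one-colour (Cy3) Agilent arrays, and Feature Extraction (10.5.1.1 per the file headers; the submitters' processing notes name 9.1) gave the deposited processed intensity, with spatial and multiplicative detrending switched on. A second deposited table of the authors' own log2 ratios was not used. Here the log2 intensity minus the log2 of the array's 75th percentile was computed. Values of 1 probe were averaged over its spots after removal of controls and of spots that the scanner software marked as outliers. A probe was tested if well above background on 10 of 20 arrays (HFC and LFC, 10 time points) or 6 of 30 (5 diets). Differences were fitted with limma 3.58.1 (lmFit, eBayes; R 4.3.3), two-sided, Benjamini-Hochberg over all probes tested, threshold 0.05. The number of arrays limits the precision. The fit was tested on simulated data. Named genes are the 8 members, the fixed pathway and marker lists, and the 10 other genes with the highest Pearson r with the mean of the 8. Members and lists were chosen with earlier results of these data known. Alternatives were background correction (normexp), normalization, filters, weights, blocks, the methods' t-test and left-out time points. Some genes of the lists are counted but not reported here by name.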

Additional observations from a re-analysis of the deposited data

Results flagged for a closer look

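Of 104 sets of 4 to 10 arrays tested (a probe within a diet, over all, early or late time points), 3 held 1 array far from the others, and chance alone flags about 1 in 20 groups. H2-Ab1 P215242 at LFC Day 6 was 0.17, with the nearest of the 4 early LFC arrays at 0.76. H2-DMa at LFC Week 0 was -1.71, with the nearest of the 4 at -1.20. One of the identical Cd74 probes at HFC Day 6 was 3.97, with the nearest of the 4 early HFC arrays at 5.68. The 2 Day 6 values are lows at a time point where the class II mean was also low.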

How the results depend on the processing

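Of 2188 alternative values of class II probes, 2186 were on the same side of the 0.05 threshold as before, and 163 of these had another sign with neither value called. With normexp, H2-Eb1 in HF20 against HFC was 1.28 (adjusted p 0.0298) against -0.22, and H2-Ob was 2.01 (adjusted p 0.0191), while 12662 probes were called (11668 higher) and the median of all probes stood at 0.54 against 0.05. The cause was not tested. All 305 late against early alternatives were above 0, with none called. For change per week, 26 probes became 1 with normexp, 57 with quantile normalization, 6 with no filter, 465 with array weights, 1 with slide as a random block, 5 without the LFC array of Week 3, 0 with time point as a random block or with time point means (these 3 added after seeing the data), and 0 to 3775 when a time point was left out, the highest without Week 3. For late against early, 54 became 4 with normexp, 13 with no filter, 8 with probes above background on every array, 325 with array weights, 29 with the methods' t-test, 150 without the LFC array of Week 3, 0 with time point as a random block or with time point means, also with Day 14 and Week 0 as 1 time point (added too), and 3 to 187 when a time point was left out. None of these calls was a class II probe. In the other comparisons, 0 probes were called in every setting but that one of HF20. Scan day as a block could not be fitted for change per week and late against early, nor slide for the comparisons of 20 arrays. No paired analysis was possible because no label pairs arrays across diets beyond the time point, which was the block.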
